A study of Mus musculus with 13 samples.

Results

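The genes described here are 37 enzymes, transporters and regulators of glucose use in mouse embryonic stem (ES) cells. They carry glucose from uptake to pyruvate and lactate, through the pentose phosphate pathway, and from the middle of glycolysis into serine and glycine. They were listed by symbol from the enzymes and transporters of these pathways, by a rule that uses no measured value, but the list was drawn up with earlier results of these data known. Of the 37 symbols, 36 were matched among the 26797 genes of the replicate libraries, and all 37 among the 49671 genes of the joint count table. G6pdx, the housekeeping gene for the first enzyme of the pentose phosphate pathway, was analysed in the joint table alone. In glycolysis a glucose molecule is taken up, phosphorylated, split and oxidized to pyruvate with a small yield of ATP, and lactate dehydrogenase then turns pyruvate into lactate, which leaves the cell through monocarboxylate transporters. The pentose phosphate pathway branches off near the top and supplies NADPH and ribose, and serine synthesis branches off in the middle and supplies one-carbon units. Pluripotent stem cells are known for high rates of glycolysis even when oxygen is present. The branch that makes the sugar donor for O-GlcNAc, the protein modification at the centre of the study, also leaves glycolysis near its top.

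The study asked how methylated promoters are kept silent, and compared ES cells that lack the maintenance DNA methyltransferase with cells that have it. WT was the AinV15 line and was sequenced in 3 replicate libraries. Dnmt1-/- was a separate line homozygous for a null Dnmt1 allele (C allele), also in 3 replicate libraries, so genotype and line cannot be told apart. The cells grew on gelatin with serum and leukemia inhibitory factor. A joint count table holds 1 library labelled WT and 1 labelled Dnmt1-/-. The labels do not tie either to a replicate or say which sample it came from. That table also holds 1 library of AinV15 cells expressing dCas9-OGA, a nuclease-dead Cas9 fused to the enzyme that removes O-GlcNAc, and 1 of cells expressing dCas9-OGA-D242A, whose OGA domain is catalytically inactive. Both carried 4 guide RNAs against the promoters of IAP retrotransposons and were induced with 1 µg/mL doxycycline for 48 h. The labels do not say whether replicates came from separate cultures, so p-values measure the spread between these libraries, which may be technical.

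Each replicate library held between 26846275 and 37112247 reads on genes, and each library of the joint table between 18693531 and 25097983. Values of the replicate libraries are normalized read counts, in which 1 read is worth between 0.0260 and 0.0368, so that even the low members are counted from many reads. Dnmt1 itself was at 308, 352 and 347 in WT and 73.6, 75.4 and 77.6 in Dnmt1-/-, with no overlap. Reads on the gene thus remained in Dnmt1-/-, and their origin was not tested. In the joint table Dnmt1 was at 61.9 cpm, a count scaled to a common library total, in the library labelled Dnmt1-/- and between 376 and 549 in the other 3. Of the 10 markers of ES cells, 9 were measured in the replicate files, of which 2 were called higher and 3 lower in Dnmt1-/-. Their sums were 5773 to 5920.0 in WT and 5614 to 6004 in Dnmt1-/-. The 10 markers of fibroblasts or feeder cells were all called lower in Dnmt1-/-, with summed values of 1095 to 1569 in WT and 262 to 292 in Dnmt1-/-. Of 6 markers of 2-cell-like cells, 5 were called lower, with sums of 357 to 384 and 149.7 to 172. Of 8 markers of primitive endoderm, 7 were called higher, with sums of 372 to 392 and 668 to 707. Of 6 markers of primed epiblast, 5 passed the filter on low values, of which 1 was called higher and 2 lower, with sums of 162 to 175 and 287 to 310.1. Over all genes tested, 35.8% were called higher and 35.4% lower. No marker of these lists was at 0 in all replicate libraries. The part of these cell types in the results that follow was not tested, and in bulk RNA fewer cells of a type and less RNA per cell cannot be told apart.

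Most genes that carry glucose to lactate were higher in Dnmt1-/- than in WT, while most of the pentose phosphate pathway differed by little. Of the 36 members tested, 29 rose, 2 fell and 5 did not pass the test (limma on log2(value + 0.5), adjusted p under 0.05). Over all 17297 genes tested, 35.8% rose and 35.4% fell by the same test, so a call alone is common in this comparison. Since the list was drawn up with earlier results known, its counts are a description beside those of all genes. By at least 1.5-fold, 18 members rose and 2 fell, beside 12.3% and 18.7% of all genes. By at least 2-fold, 8 members rose and 1 fell, beside 3.67% and 9.41%. The median log2 fold change was 0.60 over the members and 0.0069 over all genes. In 33 of 36 members the 3 libraries of each group did not overlap, beside 73.3% of all genes, and in 30 every Dnmt1-/- library stood above every WT library, beside 37.1%. The 3 members whose libraries overlapped were Gapdh, Rpe and Taldo1. For the 18 members the log2 fold changes lay between 0.62 and 3.05, their SE between 0.05 and 0.09, and their adjusted p (limma) between 1.7e-23 and 1.1e-08.

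**Figure D1:**
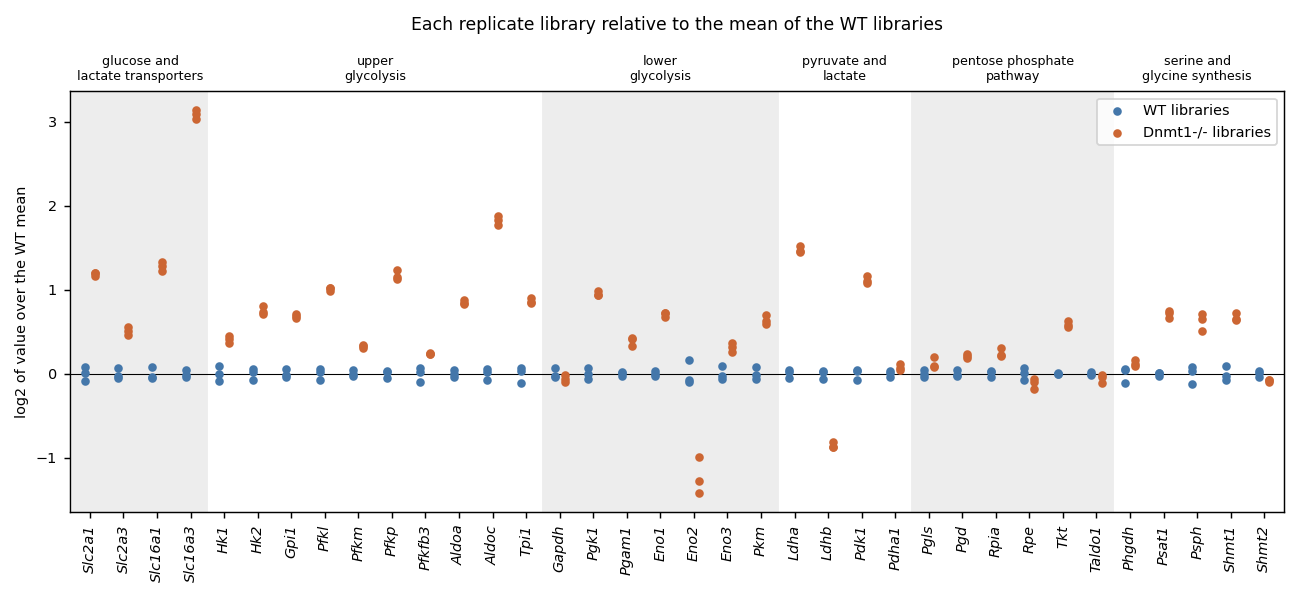
Each point is 1 replicate library, plotted as the log2 of its normalized read count over the mean of the 3 WT libraries (vertical axis), for the 36 members measured in the replicate files (horizontal axis, in the order of the pathways). The Dnmt1-/- points stand above the WT points for 30 members, farthest for Slc16a3, and below them for Eno2, Ldhb and Shmt2.

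With each library rescaled to cpm, the summed level of the members was 10703 ± 186 in WT and 15894 ± 112 in Dnmt1-/- (SD, n = 3 each), which is 1.49-fold more. By role the sum was higher by 1.68-fold for upper glycolysis, 1.58-fold for pyruvate and lactate, 1.55-fold for the transporters and 1.46-fold for lower glycolysis. It was higher by 1.21-fold for serine and glycine synthesis and by 1.10-fold for the pentose phosphate pathway. Each of these 7 sums gave p = 0.1 in the exact two-sided permutation test, the smallest p that 3 against 3 allows, so the design cannot reach 0.05 for a sum.

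All 4 transporters rose. Slc16a3 encodes MCT4, the exporter of lactate typical of strongly glycolytic cells, and had the largest fold change of the 36 members. It was at 19.9, 19.6 and 20.8 in the 3 WT libraries and 176, 164 and 171 in the 3 Dnmt1-/- libraries, with every Dnmt1-/- library far above every WT library. The log2 fold change was 3.05 with an SE of 0.05 and an adjusted p of 1.7e-23 (limma), or 8.48-fold in the means. Slc16a3 lies on chromosome 11 (chr11:120948480-120960868, mm10), whose median protein-coding gene was higher in Dnmt1-/- by 0.38 on the log2 scale. Relative to that median the log2 fold change of Slc16a3 was 2.66. Slc16a1 encodes MCT1, which moves lactate in either direction and is the more widely expressed of the pair. It was at 62.0, 56.7 and 57.1 in WT and 147, 137 and 143 in Dnmt1-/-, without overlap, a fold of 2.43. Slc2a1 encodes GLUT1, a ubiquitous glucose importer, and was at 167, 188 and 179.8 in WT and 409, 399 and 409.7 in Dnmt1-/-, a fold of 2.28 without overlap. Slc2a3 encodes GLUT3, the importer with the higher affinity for glucose, and had the highest level per exon length of the 4. It was at 1249, 1270.2 and 1358 in WT and 1841, 1779.6 and 1906 in Dnmt1-/-, so the libraries did not overlap but the change of 1.43-fold stayed under 1.5-fold.

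Sequence before the start sites is shown for the lactate exporter with the larger change, Slc16a3, and for the lactate dehydrogenase genes Ldha, Ldhb and Ldhc, the last of them known from testis, of which Ldhb alone fell. Capitals mark CG, the dinucleotide that Dnmt1 can methylate, and methylation of these sites was not measured here. The runs are from RefSeq (GRCm38.p6), 5′ to 3′ on the strand of the gene, with up to 250 bases before the start and cut before any annotated exon.
Slc16a3: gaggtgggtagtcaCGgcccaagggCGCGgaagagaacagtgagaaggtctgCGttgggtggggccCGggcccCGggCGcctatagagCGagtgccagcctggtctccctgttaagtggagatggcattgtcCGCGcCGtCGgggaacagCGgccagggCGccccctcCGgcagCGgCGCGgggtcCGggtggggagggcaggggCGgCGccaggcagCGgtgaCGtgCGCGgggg
Ldha: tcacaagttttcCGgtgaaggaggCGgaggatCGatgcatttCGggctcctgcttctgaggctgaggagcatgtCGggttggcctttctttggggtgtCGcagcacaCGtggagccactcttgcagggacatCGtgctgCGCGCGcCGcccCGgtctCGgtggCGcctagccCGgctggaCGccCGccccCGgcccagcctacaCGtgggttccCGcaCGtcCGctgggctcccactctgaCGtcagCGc
Ldhb: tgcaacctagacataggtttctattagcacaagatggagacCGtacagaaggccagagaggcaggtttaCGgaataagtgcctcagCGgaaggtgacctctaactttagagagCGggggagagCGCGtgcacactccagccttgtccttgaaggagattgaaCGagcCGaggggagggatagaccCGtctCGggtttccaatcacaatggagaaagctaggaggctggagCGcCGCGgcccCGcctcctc
Ldhc: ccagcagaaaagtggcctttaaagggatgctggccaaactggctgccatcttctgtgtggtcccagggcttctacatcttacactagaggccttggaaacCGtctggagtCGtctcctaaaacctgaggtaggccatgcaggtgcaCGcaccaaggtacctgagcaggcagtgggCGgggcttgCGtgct

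The Slc16a3 run (chr11:120948817-120949052, plus strand) holds 25 CG in 236 bases, and the Ldha run (chr7:46845554-46845803, plus strand) 25 in 250 bases. Both lie inside the span of a longer model of their gene, outside its exons. The Ldhb run (chr6:142507958-142508207, minus strand) holds 14 in 250 bases, and the Ldhc run (chr7:46861013-46861202, plus strand) holds 5 in 190 bases. The table of promoters had entries for 36 of the 37 members, with 51 starts. In the 250 bases before the start, the median was 14 CG over the 51 member starts and 6 over all 32841 starts in the table. It was 3 over the 22 starts of 16 genes from a list of isozymes, most of them tissue-restricted. ACGTG, the core of the element bound by hypoxia-inducible factors, stands in 29.4% of the member starts and 16.6% of all starts, counted on both strands. CACGTG, the E-box of Myc and of the carbohydrate-response factors, which contains ACGTG on both strands, stands in 7.84% and 6.02%. TGATGNAA, a motif of ATF4 composite sites, was found in none of the member windows and in 3.45% of all. TGACNNNGC, the core of the antioxidant response element, was found in 9.80% and 10.2%. The Ldha run holds ACGTG, read on either strand, at 3 places, the Slc16a3 run at 1, and the Ldhb and Ldhc runs at none. Ldha and Ldhc each have 2 listed starts, of which 1 is shown. The 250 bases before the other start hold 9 CG for Ldha and 3 for Ldhc, and no ACGTG for either. CG-rich promoters hold more motifs with CG in them, and these counts are a description of letters.

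All 10 members of upper glycolysis rose, 7 of them by at least 1.5-fold. Hexokinase traps glucose in the cell. Hk2, the inducible hexokinase, was at 279, 306 and 297 in WT and 482, 490.2 and 512 in Dnmt1-/-, a fold of 1.68 without overlap. Hk1, the constitutive hexokinase, rose by 1.32-fold (84.4 ± 5.08 in WT and 112 ± 3.11 in Dnmt1-/-, SD, n = 3 each). Gpi1, glucose phosphate isomerase, was at 258, 275 and 263 in WT and 435, 419 and 426 in Dnmt1-/-, again without overlap, a fold of 1.61.

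Phosphofructokinase catalyses the committed step. Pfkp, the platelet-type subunit, was at 203, 214 and 213 in WT and 460.3, 467 and 494 in Dnmt1-/-, a fold of 2.25. Pfkl, the liver-type subunit, was at 206, 225 and 219.7 in WT and 441, 429 and 439 in Dnmt1-/-, a fold of 2.01. Pfkm, the muscle-type subunit, rose by 1.25-fold (37.4 ± 0.970 in WT and 46.9 ± 0.571 in Dnmt1-/-, SD, n = 3 each), so all 3 subunits rose and the libraries of the groups did not overlap for any of them. Pfkfb3, which makes the allosteric activator of phosphofructokinase, rose by 1.18-fold (23.9 ± 1.44 in WT and 28.2 ± 0.221 in Dnmt1-/-, SD, n = 3 each).

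Aldolase splits the hexose. Aldoa, the main aldolase by level, was at 791, 838 and 813 in WT and 1460.1, 1442 and 1491 in Dnmt1-/-, a fold of 1.80. Aldoc, the brain-type aldolase, was low at 4.19, 4.28 and 3.92 in WT and 14.6, 14.1 and 15.1 in Dnmt1-/-, a fold of 3.54, or a log2 fold change of 1.71 and, relative to the median of chromosome 11, of 1.32. With a pseudocount of 5 it was 1.10. Neither aldolase had overlapping groups. Tpi1, triosephosphate isomerase, was at 228, 232 and 206 in WT and 414, 402 and 398 in Dnmt1-/-, a fold of 1.82.

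Lower glycolysis, which earns the ATP, was less uniform: 5 of 7 members rose, 1 fell and Gapdh did not pass the test. Gapdh, the dehydrogenase that opens the pay-off phase and a common reference gene, was at 127, 128 and 137 in WT and 122, 125 and 129 in Dnmt1-/-. Its log2 fold change was -0.06 with an SE of 0.05 (adjusted p = 0.29, limma), and the groups overlapped. Pgk1, phosphoglycerate kinase, was at 453, 429.6 and 414 in WT and 852, 829 and 824 in Dnmt1-/-, a fold of 1.93 without overlap. Pgam1, phosphoglycerate mutase, rose by 1.31-fold (413 ± 7.88 in WT and 539 ± 18.8 in Dnmt1-/-, SD, n = 3 each). Eno1, the widely expressed enolase, was at 483, 503 and 491 in WT and 814, 786 and 815 in Dnmt1-/-, a fold of 1.63. Eno2, the neuronal enolase, was near the bottom of the range at 7.01, 8.36 and 7.11 in WT and 3.10, 3.78 and 2.80 in Dnmt1-/-. It fell by 1.11 on the log2 scale with an SE of 0.12 and an adjusted p of 8.2e-09 (limma), and the groups did not overlap. With a pseudocount of 5, large beside these values, the log2 fold change was -0.60. Eno3, the muscle enolase on chromosome 11, rose by 1.25-fold (20.2 ± 1.18 in WT and 25.2 ± 0.944 in Dnmt1-/-, SD, n = 3 each), but relative to the chromosome median its log2 difference was -0.08 and no longer passed the test. Pkm, pyruvate kinase, was the highest member per exon length and was at 2363, 2519.7 and 2285 in WT and 3862, 3699 and 3599 in Dnmt1-/-, a fold of 1.56, or a log2 fold change of 0.64 and, relative to the chromosome median, of 0.56, which is under 1.5-fold. Its splice forms are not separated in these gene-level values.

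Some of these genes share sequence with other places in the genome, and the handling of reads that match several places can lower or mix their counts. Of the 50-base windows of their exons, 83.5% recur elsewhere for Pgam1, 68.3% for Pgk1, 51.9% for Phgdh, 26.7% for Ldhb, 24.7% for Gapdh, 20.7% for Eno1, 17.4% for Pkm, 15.3% for Ldha and 14.2% for Tpi1. For the other 28 members the share was at most 7.09%. Levels of these 9 genes are therefore uncertain, and Gapdh stood 20th of 36 members per exon length in WT.

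At the end of the pathway the 2 lactate dehydrogenase subunits moved in opposite directions. Ldha, whose subunit favours the making of lactate, was at 470.0, 463 and 439.6 in the 3 WT libraries and 1315, 1245 and 1256 in the 3 Dnmt1-/- libraries. Its log2 fold change was 1.47 with an SE of 0.05 and an adjusted p of 1.5e-17 (limma), or 2.78-fold. Ldhb, whose subunit favours the use of lactate, was at 361, 383 and 386 in the 3 WT libraries and 205, 205 and 214 in the 3 Dnmt1-/- libraries, and fell by 0.85 on the log2 scale with an SE of 0.05 and an adjusted p of 9.8e-14 (limma). Neither gene had overlapping groups. Pdk1, the kinase that switches off pyruvate dehydrogenase, was at 82.0, 76.5 and 82.9 in WT and 172, 170.3 and 179 in Dnmt1-/-, a fold of 2.16 without overlap. Pdha1, the pyruvate dehydrogenase subunit it acts on, was at 173 ± 4.28 in WT and 182 ± 4.17 in Dnmt1-/-, SD, n = 3 each. Its log2 fold change of 0.08 did not pass the test (adjusted p = 0.15, limma).

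The pentose phosphate pathway had no member that changed by 1.5-fold in the limma fit of all replicate libraries. Of the 6 members measured in the replicates, 4 rose and 2 did not pass the test, and the median log2 fold change was 0.17. Tkt, transketolase, which links the pathway back to glycolysis, came closest at 226, 228 and 226 in WT and 349.9, 332 and 338 in Dnmt1-/-, a log2 fold change of 0.58 without overlap. Over the alternative settings its log2 fold change ran from 0.55 to 0.60, the upper end of which is past 1.5-fold. In the oxidative branch, Pgd, which yields NADPH, rose by 1.16-fold (206 ± 5.42 in WT and 239 ± 3.49 in Dnmt1-/-, SD, n = 3 each), and Pgls, the lactonase before it, was 1.09-fold higher with an adjusted p of 0.049 (limma). This call was lost with edgeR, DESeq2, TMM scaling, no filter on low values and relative to the chromosome median, and without WT replicate 1 or 3 or Dnmt1-/- replicate 1 or 2. In the other branch, Rpia, ribose phosphate isomerase, rose by 1.19-fold. Rpe, the epimerase beside it, was at 75.6 ± 3.89 in WT and 69.6 ± 2.92 in Dnmt1-/-, SD, n = 3 each (adjusted p = 0.054, limma). It was called lower with edgeR, TMM scaling and a replicate block, and without WT replicate 2 or Dnmt1-/- replicate 1. Taldo1, transaldolase, was at 229 ± 2.93 in WT and 221 ± 7.20 in Dnmt1-/-, SD, n = 3 each (adjusted p = 0.32, limma).

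In serine and glycine synthesis 4 of 5 members rose, 3 of them by at least 1.5-fold and 1, Psat1, also relative to the chromosome medians. Phgdh, the first and committed enzyme of the pathway, differed by 1.09-fold (128 ± 7.96 in WT and 139 ± 3.68 in Dnmt1-/-, SD, n = 3 each, adjusted p = 0.037, limma), and this call was lost with edgeR, DESeq2, TMM scaling, no filter on low values, or without WT replicate 3 or any of the Dnmt1-/- replicates. Its log2 fold change of 0.12 was 0.07 without WT replicate 3 and 0.20 relative to the chromosome median. Psat1, the aminotransferase after it, was at 244, 238 and 244 in WT and 399, 383 and 405 in Dnmt1-/-, a fold of 1.63 without overlap. Psph, the phosphatase that releases serine, was at 38.9, 37.7 and 33.9 in WT and 57.9, 52.2 and 60.2 in Dnmt1-/-, a fold of 1.54, or a log2 fold change of 0.62 and, relative to the chromosome median, of 0.58. Shmt1, the cytosolic enzyme that turns serine into glycine, was at 118, 114 and 128 in WT and 186, 188 and 198 in Dnmt1-/-, a fold of 1.59. It lies on chromosome 11, and relative to the chromosome median its log2 fold change was 0.28 in place of 0.67, which passed the test but not 1.5-fold. Shmt2, the mitochondrial form and the higher of the pair per exon length, was at 275, 288 and 284 in WT and 267, 264 and 268 in Dnmt1-/-. Its log2 fold change of -0.08 did not pass the test (adjusted p = 0.11, limma), although the libraries of the groups did not overlap.

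Compared per kb of exon, the members spanned a wide range. Pkm stood at 478 ± 23.9 in WT and 744 ± 26.6 in Dnmt1-/- (SD, n = 3 each) and Aldoa at 279.7 ± 8.21 in WT and 503 ± 8.43 in Dnmt1-/-, the highest and next highest level in both groups. Ldhb was the third in WT and the ninth in Dnmt1-/- (per kb, 239.9 ± 8.81 in WT and 133 ± 3.15 in Dnmt1-/-), while Ldha was the seventh in WT and the third in Dnmt1-/- (138 ± 4.79 in WT and 384 ± 11.3 in Dnmt1-/-). At the low end stood Aldoc at 1.27 ± 0.0590 in WT and 4.48 ± 0.160 in Dnmt1-/- and Eno2 at 1.59 ± 0.160 in WT and 0.686 ± 0.107 in Dnmt1-/-. Slc16a3 moved from the level of the lowest members to that of Slc16a1: per kb it was at 3.78 ± 0.114 in WT and 32.0 ± 1.15 in Dnmt1-/-, and Slc16a1 at 13.2 ± 0.662 in WT and 32.1 ± 1.11 in Dnmt1-/-. In Dnmt1-/- these 2 exporters did not differ beyond their spread.

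**Figure D2:**
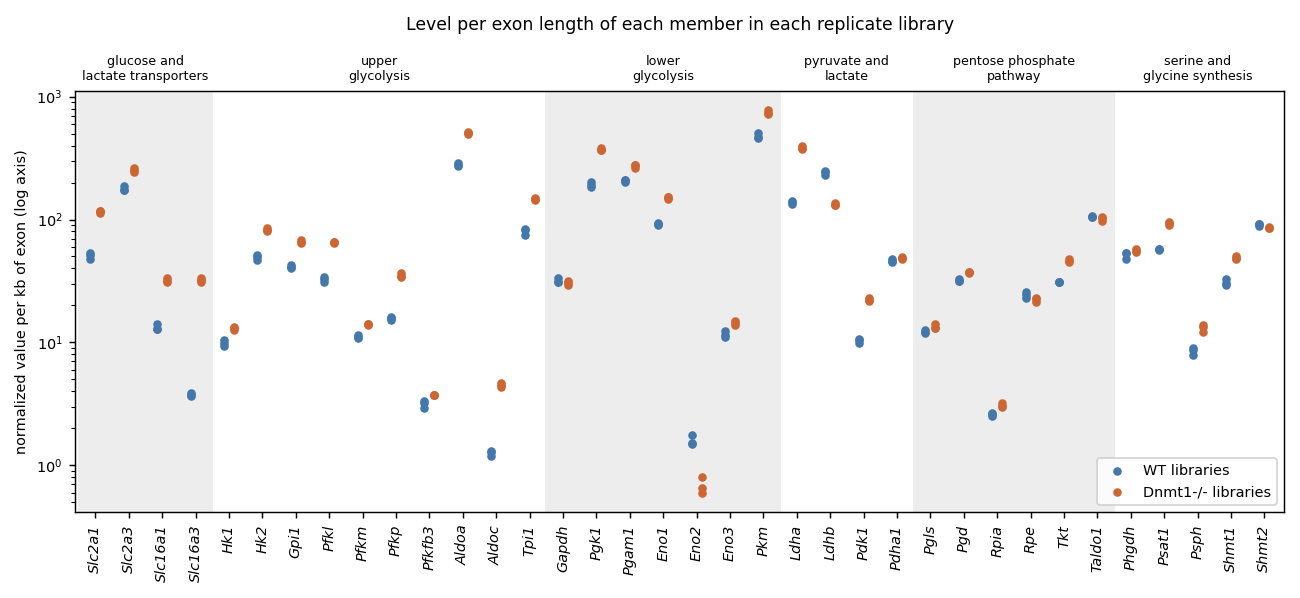
Each point is 1 replicate library, plotted as normalized read count per kb of exon on a log axis (vertical), for the 36 members (horizontal, in the order of the pathways). Pkm and Aldoa are the highest in both groups, and Aldoc and Eno2 are among the lowest.

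The share of each isozyme in its step was computed per exon length in each library. The share of Ldhb in the lactate dehydrogenase sum moved from 63.4% ± 1.57 in WT to 25.7% ± 0.827 in Dnmt1-/- (SD, n = 3 each), the largest shift of the 12 shares. Of the exon windows, 26.7% recur elsewhere for Ldhb, 15.3% for Ldha and 20.7% for Eno1, so the sizes of shares with these genes are uncertain. The share of Slc16a3 in the 2 lactate exporters moved from 22.2% ± 1.07 in WT to 49.9% ± 0.0471 in Dnmt1-/-. The share of Shmt1 moved from 25.3% ± 1.23 in WT to 36.4% ± 0.649 in Dnmt1-/-, and that of Slc2a1 in the 2 glucose importers moved from 22.2% ± 1.06 in WT to 31.3% ± 0.476 in Dnmt1-/-. Hk2 stayed the main hexokinase, with a share that moved from 83.3% ± 0.254 in WT to 86.3% ± 0.318 in Dnmt1-/-. Pfkl stayed the main phosphofructokinase subunit at 54.7% ± 0.662 and 56.9% ± 0.647, while Pfkp moved from 26.4% ± 0.277 in WT to 30.8% ± 0.823 in Dnmt1-/- and Pfkm moved from 18.9% ± 0.592 in WT to 12.2% ± 0.181 in Dnmt1-/-. Without the division by length the share of Pfkl was lower in Dnmt1-/-, so its direction rests on the length correction. Eno1 made up 87.4% of the enolases in WT and 90.8% in Dnmt1-/-, Eno3 11.1% and 8.78%, and Eno2 1.52% and 0.417%. Aldoc made up 0.451% and 0.883% of the aldolases. Each of the 12 shares gave p = 0.1 in the exact two-sided permutation test, the smallest that 3 against 3 allows, and 0.1 after Benjamini-Hochberg adjustment over the 12. The depth of the libraries is not the limit here, since the SD of each share was small beside its shift, but the number of libraries is.

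**Figure D3:**
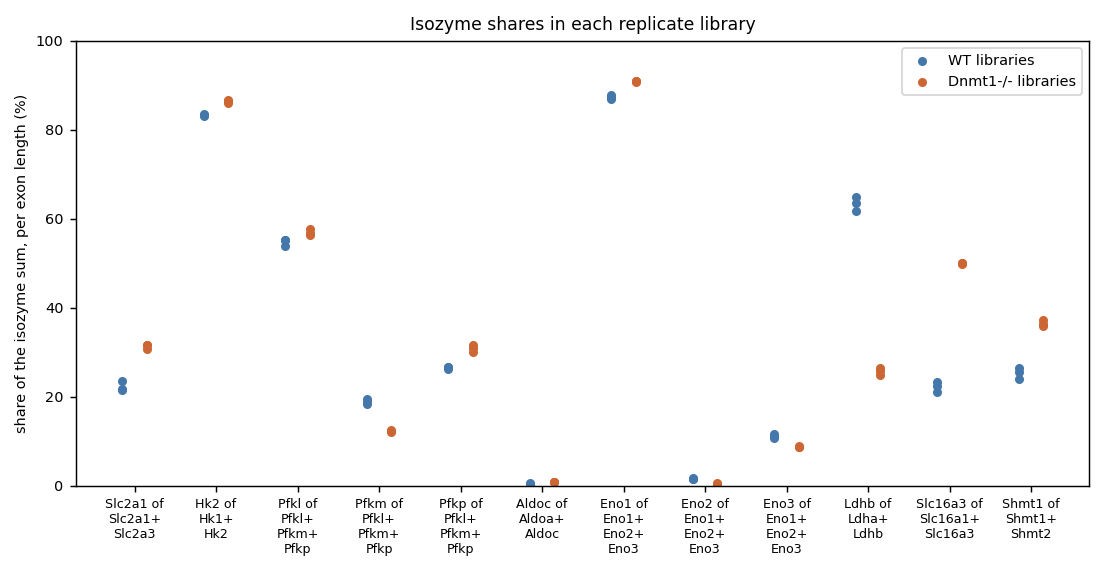
Each point is the share, in percent and per exon length, that 1 isozyme takes of the isozymes named below it (horizontal axis) in 1 replicate library (vertical axis from 0 to 100%). The 3 Dnmt1-/- libraries stand apart from the 3 WT libraries, farthest for Ldhb and Slc16a3.

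Among isozymes known mainly from germ cells, liver or other tissues, several were low in WT and higher in Dnmt1-/-. Of 21 listed, 20 were in the replicate files, 16 passed the filter on low values, and of these 11 rose and 5 fell (3 without Dnmt1-/- replicate 2), where 35.8% of all genes rose and 35.4% fell. By at least 2-fold 5 rose and 1 fell, beside 3.67% and 9.41% of all genes. The median log2 fold change was 0.66 over the 16, a number that leaves out genes too low to test. A gene at such a level could pass the filter through the group in which it is higher. Ldhc, the lactate dehydrogenase of sperm, was at 0.819, 1.06 and 0.611 in WT and 7.97, 6.57 and 6.19 in Dnmt1-/-, without overlap. Its log2 fold change was 2.48 with an SE of 0.14 (adjusted p = 6.7e-14, limma), on the log2(value + 0.5) scale, which understates changes of low genes. Tktl2, a transketolase-like gene known from testis, was at 1.02, 0.805 and 1.08 in WT and 8.29, 6.74 and 7.55 in Dnmt1-/-, and Tktl1, a related gene on the X chromosome, at 0.786, 0.753 and 0.862 in WT and 4.87, 3.22 and 4.31 in Dnmt1-/-. Hkdc1, a hexokinase-like gene, was at 3.34, 3.43 and 3.20 in WT and 12.1, 11.4 and 13.3 in Dnmt1-/-. For these 4 the Dnmt1-/- libraries stood above the WT libraries. Slc16a7, which encodes the monocarboxylate transporter MCT2, fell, at 0.819, 0.935 and 0.826 in WT and 0.104, 0.263 and 0.147 in Dnmt1-/-, with a log2 fold change of -1.02 and, relative to the median of its chromosome, of -0.99. The size of these low genes depends on the pseudocount: at 5 the log2 fold change was 1.03 for Ldhc, 1.07 for Tktl2, 0.65 for Tktl1, 1.05 for Hkdc1 and -0.18 for Slc16a7, and with edgeR that of Slc16a7 was -2.30. Pgk2, Slc2a2 and G6pd2, known from testis or liver, were among the genes at or near 0 that were not tested. Eno1b was at 655 ± 9.30 in WT and 1255 ± 31.3 in Dnmt1-/-, SD, n = 3 each. Of its 50-base exon windows 89.6% recur elsewhere, and its level is uncertain for that reason.

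Several neighbouring pathways were read from the same fit, as lists without a test of the list. Their counts stand beside the 35.8% of all genes that rose and the 35.4% that fell. At 2-fold the shares of all genes were 3.67% and 9.41%. Of 19 measured genes of the hypoxia-inducible factor pathway and its known targets outside glycolysis, 13 rose, 4 fell (2 without Dnmt1-/- replicate 3) and 2 did not pass, and the median log2 fold change was 0.44. Egln3, a prolyl hydroxylase of the pathway, was at 7.27, 6.18 and 6.82 in WT and 17.9, 16.2 and 19.7 in Dnmt1-/-. Bnip3, a mitophagy receptor, was at 7.76, 6.52 and 5.71 in WT and 18.2, 17.0 and 14.9 in Dnmt1-/-. Ero1l, which oxidizes protein disulfide isomerase, was at 45.7, 46.6 and 48.7 in WT and 106, 103 and 117 in Dnmt1-/-, and P4ha2, a collagen prolyl hydroxylase, at 49.9, 54.2 and 49.9 in WT and 106, 109 and 107 in Dnmt1-/-. These 4 rose by at least 2-fold, with no overlap of the groups, and no gene of the list fell by that much. P4ha2 lies on chromosome 11, and relative to the chromosome median its log2 fold change was 0.67 in place of 1.06, which is under 2-fold. With a pseudocount of 5 the log2 fold changes of Egln3 (0.96), Bnip3 (0.90) and P4ha2 (0.99) were under 2-fold too. Vegfa, the angiogenic factor and a classical target, was chosen after its values were seen: it fell, at 96.2, 103 and 88.3 in WT and 48.3, 54.0 and 49.7 in Dnmt1-/-, against the direction of those 4.

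Of 15 measured genes of the ATF4 amino-acid response, which includes serine synthesis among its targets, 5 rose and 6 fell. The median log2 fold change was 0.04. Chac1, which degrades glutathione, fell by at least 2-fold, at 47.5, 49.99 and 45.1 in WT and 16.2, 15.3 and 15.9 in Dnmt1-/-. Of 14 genes of folate one-carbon metabolism and glycine cleavage, 7 rose and 6 fell, with a median of 0.01. Gldc, the glycine decarboxylase, rose, at 81.4, 88.9 and 90.6 in WT and 178, 171 and 179 in Dnmt1-/-. The log2 fold change of Gldc, 1.01, was 0.98 with a pseudocount of 5 and 0.97 without WT replicate 1. Mthfd2l, a mitochondrial folate enzyme, fell, at 4.81, 3.77 and 4.38 in WT and 1.43, 1.61 and 1.22 in Dnmt1-/-, a log2 fold change of -1.33 and, with a pseudocount of 5, of -0.54. Of 16 tested genes of side branches and regulators of glycolysis, 9 rose and none fell in limma (adjusted p under 0.05), nor in edgeR or DESeq2, but none by 2-fold, with a median of 0.31. Of 9 further genes of the pyruvate dehydrogenase complex and its regulators, 8 rose (5 relative to the chromosome medians), none by 1.5-fold, with a median of 0.21. Of 8 genes for Myc and carbohydrate-response factors, 6 rose and 2 fell, none by 2-fold, with a median of 0.33.

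**Figure D4:**
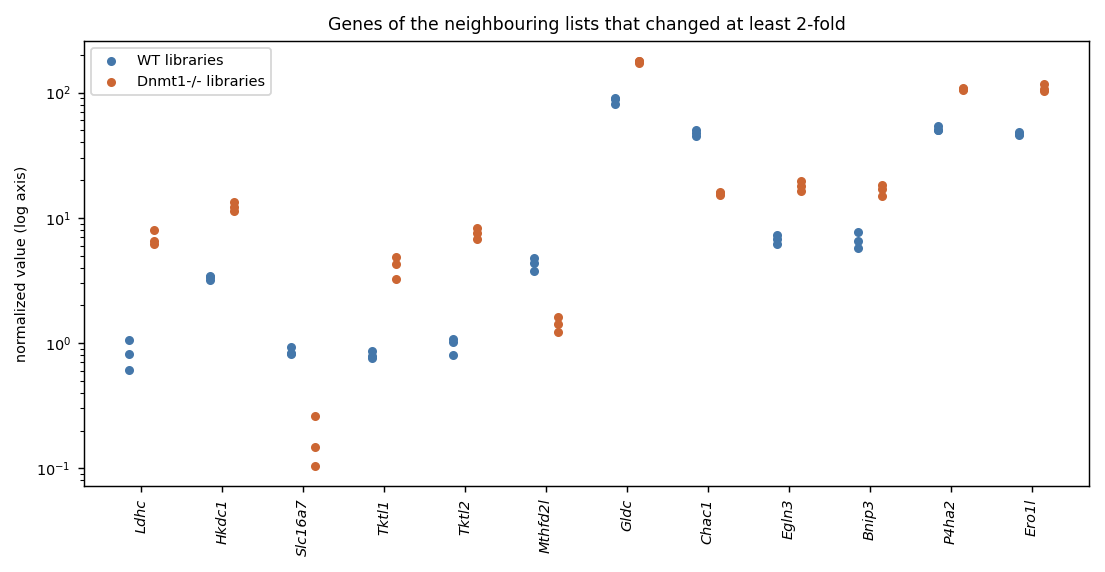
Each point is the normalized read count of 1 replicate library on a log axis (vertical) for the genes of the neighbouring lists that passed the test with a change of at least 2-fold and are named in the text (horizontal). Ldhc, Tktl1, Tktl2 and Hkdc1 were higher in every Dnmt1-/- library, and Slc16a7, Mthfd2l and Chac1 were lower.

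The joint count table allows a look at the same genes in a WT and a Dnmt1-/- library that the labels do not tie to the replicates. There is 1 library of each, so the differences have no replicate check and no p-value, and the intervals (95%, exact Clopper-Pearson on the split of the counts) cover counting error only. Levels are not compared between this table and the replicates, since the methods give different aligners for them. The direction of the replicates did not recur for many members. In the Dnmt1-/- library 4 of 37 members stood higher by 1.5-fold or more and 9 stood lower, beside 19.7% and 17.9% of 12593 genes with at least 100 counts. Slc2a3 was at 1036 cpm against 2915 in WT, a log2 ratio of -1.49 (interval -1.52 to -1.47). Pgam1 had a log2 ratio of -1.05, Pfkl of -0.89, Tpi1 of -0.86, Eno2 of -0.80, Eno1 of -0.79, Slc2a1 of -0.69, Rpe of -0.67 and Pfkfb3 of -0.59. Ldhb was higher here, at 205 cpm against 87.02, a log2 ratio of 1.23 (interval 1.16 to 1.32). Psat1, at 377 against 170.3 cpm, had a log2 ratio of 1.14, Eno3 of 1.04 and Pdha1 of 0.69. Relative to the chromosome medians Slc2a1 (-0.52), Pfkfb3 (-0.47) and Pdha1 (0.58) were under 1.5-fold. Slc16a3 was at 689 cpm in the Dnmt1-/- library and 681 in the WT library, a log2 ratio of 0.02 (interval -0.02 to 0.05). Ldha was at 1775 against 2589 cpm.

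Of the 18 members that rose by at least 1.5-fold in the replicates, 8 were higher and 10 lower in this Dnmt1-/- library, and by 1.5-fold or more 1 was higher and 4 were lower. G6pdx, measured in this table alone, was at 135 against 116 cpm, a log2 ratio of 0.22. Several of the listed restricted isozymes were sparse in this table. Ldhc, Tktl1 and Hkdc1 had fewer than the 100 counts over the pair required for a ratio, so their levels are given without one. Ldhc was at 4.26 cpm (81 counts) against 0.484 cpm (12 counts) in WT. Tktl1 was at 2.26 cpm (43 counts) against 0.323 cpm (8 counts), and Tktl2 at 4.84 cpm (92 counts) against 1.17 cpm (29 counts). Hkdc1 was at 0.316 cpm (6 counts) against 2.30 cpm (57 counts). The summed levels of cell-state markers also differed between this WT and this Dnmt1-/- library. In that order the summed cpm was 61.3 and 34.9 for fibroblast or feeder markers, 34.1 and 1.26 for 2-cell-like markers and 222 and 129 for primitive endoderm markers, the last of which went the other way in the replicates. It was 572 and 553 for primed epiblast markers, whose sum also went the other way in the replicates, and 6059.5 and 4808 for ES cell markers. Their part in the differences of these genes was not tested.

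The comparison of dCas9-OGA with dCas9-OGA-D242A asks what the catalytic activity of the fusion changes. For these genes the differences were few. With the active enzyme 3 of 37 members stood higher by 1.5-fold or more and 3 stood lower, beside 13.2% and 15.2% of 12722 genes, and the median log2 ratio over the members was -0.053. Hk1 was at 331 cpm with the active and 184 cpm with the inactive enzyme, a log2 ratio of 0.84 (interval 0.79 to 0.90). Hk2 was at 516 and 299.6 cpm, a log2 ratio of 0.78, so both hexokinases were higher. Slc2a3 was at 1897 and 1175 cpm, a log2 ratio of 0.69. Ldhb was lower, at 75.8 and 198 cpm, a log2 ratio of -1.38 (interval -1.46 to -1.31), while Ldha was at 1467 and 1546 cpm. Slc16a3 was at 172 and 360.1 cpm, a log2 ratio of -1.06. Shmt1 was at 201 and 309 cpm, a log2 ratio of -0.62. Markers of cell state differed between the same libraries. With the active and the inactive enzyme the summed cpm was 282 and 141 for primitive endoderm, 181 and 458 for primed epiblast and 6579.7 and 4654 for ES cell markers. It was 57.5 and 74.6 for fibroblast or feeder and 0.564 and 1.49 for 2-cell-like markers, and the part of these cell states in the differences was not tested.

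Whole chromosomes differed between these 2 libraries. The median log2 ratio of protein-coding genes was -0.46 on chromosome 11 and -0.47 on chromosome 8, and 0.40 on chromosome 1. The 4 members on chromosome 11 were all lower in dCas9-OGA, and relative to the chromosome median the log2 ratio was -0.61 for Slc16a3, -0.16 for Shmt1, -0.01 for Aldoc and 0.04 for Eno3. Pgls, on chromosome 8, moved from -0.40 to 0.08 in the same way, and Rpe, on chromosome 1, from -0.04 to -0.43. Pfkfb3, on chromosome 2, moved from -0.56 to -0.67 and so past 1.5-fold. Ldhb, on chromosome 6, was at -1.45 relative to its chromosome, and Hk1, on chromosome 10, at 0.83.

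Both induced lines can be set against the WT library of the table, which was not given as induced and which the 2 comparisons share. In dCas9-OGA 6 members stood higher by 1.5-fold or more and 12 lower, beside 24.5% and 21.7% of 12746 genes. In dCas9-OGA-D242A 7 were higher and 14 lower, beside 23.7% and 19.7% of 12933 genes. The serine synthesis enzymes stood above the WT library in both. Psat1 was at 594 cpm with the active enzyme, 654 with the inactive enzyme and 170.3 in WT, with log2 ratios of 1.80 and 1.94. For Phgdh the log2 ratios were 0.90 and 1.01, and for Psph 1.00 and 0.81. Pfkfb3 stood lowest against WT, at 14.4, 21.4 and 71.2 cpm in the same order, with log2 ratios of -2.27 and -1.71. Slc16a3 had log2 ratios of -1.98 and -0.92, Slc2a1 of -0.96 and -1.40, and Slc2a3 of -0.62 and -1.31. Ldhb differed between the lines, with -0.20 for the active and 1.18 for the inactive enzyme, as did Hk1 with 1.47 and 0.63.

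The other members past 1.5-fold against the WT library were lower in both lines, with few exceptions. Ldha had log2 ratios of -0.82 and -0.74, Rpe of -0.80 and -0.77, and Pfkl of -0.76 and -0.71. Gapdh had -1.05 and -1.11, but was at only 10.7, 10.3 and 22.8 cpm in dCas9-OGA, dCas9-OGA-D242A and WT. Its level is uncertain through sequence shared with other places in the genome, as are those of Ldha, Pgam1, Tpi1 and Eno1. Pgam1 was at 94.2, 116 and 189 cpm in dCas9-OGA, dCas9-OGA-D242A and WT. Tpi1 had log2 ratios of -0.70 and -0.78, Gpi1 of -0.68 and -0.87, and Eno1 of -0.75 and -0.60. Aldoa and Shmt2 passed 1.5-fold in dCas9-OGA-D242A alone, with -0.66 and -0.59, beside -0.48 and -0.04 in dCas9-OGA. The exceptions were Pdha1, with 1.34 and 0.82, and Eno3, with 0.60 and 1.02, which were higher in both. Relative to the chromosome medians Gpi1 in dCas9-OGA (-0.48) and Aldoa (-0.45), Ldha (-0.54) and Eno1 (-0.51) in dCas9-OGA-D242A were under 1.5-fold. Summed over all 37 members, the level was 22173 cpm in the WT library and 16519.7 in the Dnmt1-/- library, beside 16535 with the active and 15742 with the inactive enzyme. The WT library is thus the highest of the 4, whereas the WT replicates stood below the Dnmt1-/- replicates. The share of Ldhb per exon length was 6.62% in the WT library and 19.6% in the Dnmt1-/- library, beside 9.83% with the active and 21.3% with the inactive enzyme.

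**Figure D5:**
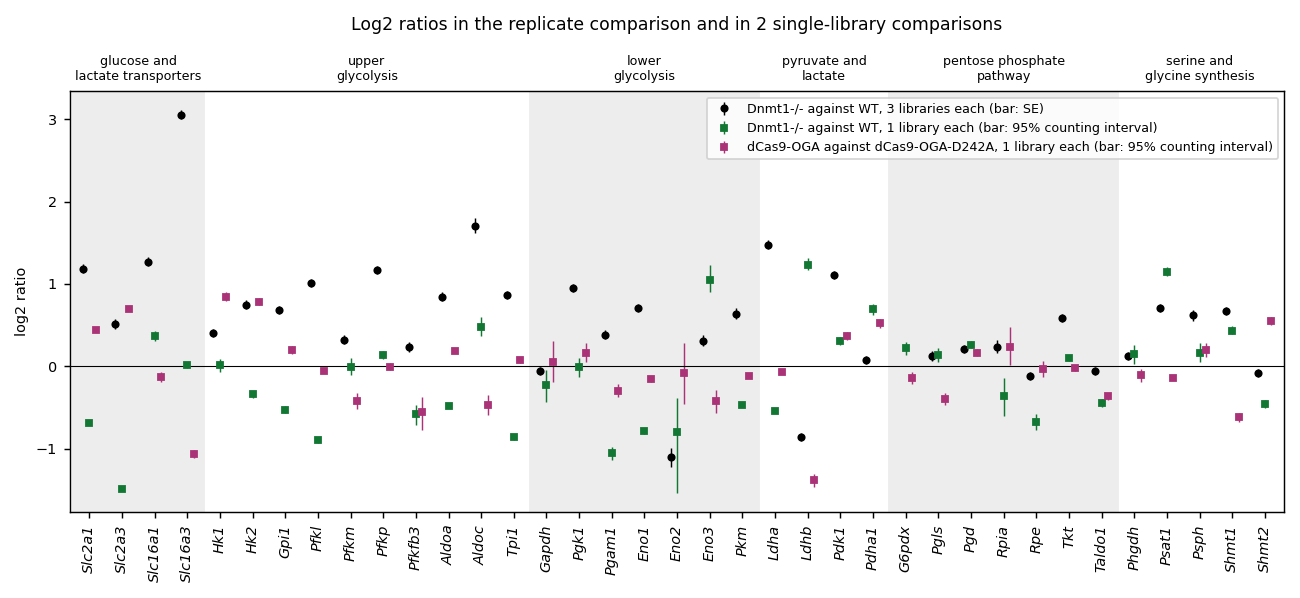
Log2 ratios (vertical axis) of the 37 members (horizontal axis) in the replicate comparison (black, SE) and in 2 comparisons of single libraries (green for Dnmt1-/- against WT, purple for dCas9-OGA against dCas9-OGA-D242A, bars for 95% counting intervals). The black points lie above 0 for most members of glycolysis, and the green points lie below 0 for many of the same genes.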

How the data were processed

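RNA-seq libraries of mouse ES cells were analysed: 3 WT, 3 Dnmt1-/-, and 1 library each of dCas9-OGA, dCas9-OGA-D242A, WT and Dnmt1-/- in a joint table. Repeat counts and ChIP-seq were not used here. For the 6 replicates the authors aligned reads to mm10 with HISAT2 2.1.0, counted them on Ensembl v87 genes with featureCounts 1.5.0 and deposited a normalized signal, in which each read has a fixed worth per library. Because the header lines of these 6 files disagree with the data beneath, values were read from column 3. Whole reads were recovered for 100% of values (tolerance 0.001). For the joint table the authors deposited unnormalized counts; the processing notes name TopHat2 2.0.11 for this series beside featureCounts 1.5.0. The labels and the paper name different library kits, the second of them stranded, and the strand setting of the counting is not given in the sources used here, so overlapping antisense genes cannot be told apart.

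Genes kept by filterByExpr (17297) entered limma 3.58.1 with an intensity trend, as log2(value + 0.5), with Benjamini-Hochberg adjustment; a gene was called at adjusted p under 0.05. The recovered reads were tested with edgeR 4.0.16 (quasi-likelihood) and DESeq2 1.42.0 as alternatives. Single libraries were scaled with TMM and compared on log2(cpm + 0.5) for genes with at least 100 counts over the pair, with a fold rule of 1.5 and no test. Sums and isozyme shares were compared by exact two-sided permutation. Exon lengths and positions came from GENCODE vM21 (GRCm38), which placed 26679 of 26797 and 49326 of 49671 gene identifiers. Repeated windows were found by exact match of 50 bases over 21 chromosomes. On simulated data with 200 of 17297 genes changed by 1 on the log2 scale, 186 (93%) were recovered by limma, 186 by edgeR and 172 by DESeq2. False calls numbered 12, 12 and 4.

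The members, the neighbouring lists and the markers were chosen with earlier results of these data known. Values in every library are given for members called with at least 1.5-fold change and for the highest isozyme per length at each step, and ratios for members past 1.5-fold between single libraries. Of each neighbouring list, called genes of at least 2-fold are named, up to 8 a list; 2 genes of the isozyme list are counted but not reported here. Replicates differed by more than sampling noise (chi-square per gene 2.83 to 9.89). Replicate numbers did not pair the samples: same-numbered libraries had correlations of 0.07, -0.02 and 0.07 in their deviations. Alternatives were other tests, pseudocounts (5 and 0.1), scalings, filters, chromosome medians, lengths, a replicate block and left-out replicates. Versions were R 4.3.3 and Python 3.11.15 with SciPy 1.17.1, NumPy 2.4.6, pandas 2.3.3; figures used matplotlib 3.10.9.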

Additional observations from a re-analysis of the deposited data

Results flagged for a closer look

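In 5 members the replicates and the single libraries pointed in opposite directions for the same contrast, Dnmt1-/- against WT, with no overlap of the replicate libraries and at least 1.5-fold in each set. Slc2a1 had a log2 fold change of 1.19 in the replicates and a log2 ratio of -0.69 between the single libraries, the latter -0.52 and under 1.5-fold relative to the chromosome median. Pfkl had 1.01 and -0.89, Tpi1 0.87 and -0.86, and Eno1 0.71 and -0.79. Ldhb had -0.85 and 1.23. The difference between the 2 sets was not tested, since the single set has 1 library per group and the methods give different aligners for the sets. Eno1, Tpi1 and Ldhb also share sequence with other places in the genome, and Slc2a1 does not (0% of 50-base windows) and Pfkl hardly does (0.257%).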

How the results depend on the processing

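The 18 and 2 members called at least 1.5-fold higher and lower were 18 and 2 with edgeR and with DESeq2, 17 and 2 with a pseudocount of 5, and 15 and 2 relative to the chromosome medians. Leaving out each replicate gave 17 to 19 and 2. The counts called at any size, 29 and 2, ranged from 27 to 29 and from 2 to 3 over the alternatives. Pgls and Phgdh were lost with edgeR, DESeq2, TMM scaling and no filter, and Rpe was called lower with edgeR, TMM scaling and the replicate block. Pgls was also lost relative to the chromosome median and without WT replicate 1 or 3 or Dnmt1-/- replicate 1 or 2. Phgdh was lost without WT replicate 3 or any Dnmt1-/- replicate, and Rpe was called without WT replicate 2 or Dnmt1-/- replicate 1. Relative to the chromosome median, Gapdh changed sign to 0.0052 and Eno3 to -0.079, the genes of the pyruvate dehydrogenase list called higher were 5 in place of 8, and 1 gene of the side branches was called lower. Those shifts follow from subtracting the chromosome median. Without the length correction the difference in the share of Pfkl was -1.09 points (exact p = 0.2) in place of 2.23. Leaving out a replicate moved the restricted isozymes called lower between 3 and 5 (3 without Dnmt1-/- replicate 2, in place of 5) and the hypoxia list between 2 and 4 (2 without Dnmt1-/- replicate 3, in place of 4). With the replicate block 29 members rose and 3 fell, the third being Rpe, and the paired sign-flip of the summed level gave a log2 difference of 0.57 (exact p = 0.25, the smallest that 3 pairs allow). Samples with the same number share only that number, and the block changed no other call of a member. In the single libraries no count of members past 1.5-fold moved by more than 1.5 times under any alternative, with 7 to 9 lower between Dnmt1-/- and WT and 11 to 14 between dCas9-OGA-D242A and WT. With 3 libraries a group, the number of libraries rather than depth limits the sums and shares, and with 1 library a group no difference can be told from the spread between cultures.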
